A study of Mus musculus with 4 samples.

Results

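Antisense transcripts are RNAs read from the strand opposite to another gene, most of them noncoding. In the gene table of AML12 cells 341 of them passed the rule used here: the row was annotated as antisense and its mean over the 4 libraries was at least 1 TPM, a length-corrected share of the library's transcripts. The members were thus selected on their TPM, the same values that are compared between cultures below, though on the level over all libraries and not on the difference. They were 341 of 1694 antisense rows (20.1%) in a table of 31828 genes, and 775 of the other antisense rows had a mean under 0.1 TPM. AML12 is a mouse hepatocyte line derived from a mouse that carried a transgene for the growth factor TGF-alpha, and it is 1 line, so no result here extends over donors. The groups were 2D-cultured cells in dishes and 3D-cultured cells embedded in Matrigel, a basement membrane extract, with 2 libraries each. Both groups received 1 mM hydroxyurea, an inhibitor of DNA synthesis which arrests cells before S phase. The 2D cultures were kept in it for 24 h, whereas the 3D cultures first grew for 24 h and were then kept in it for 36 h. The effects of growth form and of hydroxyurea time cannot be told apart. The labels number the libraries of a group as replicates without saying that they came from separate cultures, so the p-values measure the spread between these libraries, which may be technical.

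Antisense RNAs arise in several layouts. Some run across the start of a coding gene, often from a start nearby (head to head). Some meet the coding gene at its end (tail to tail), and some lie inside it. A few are known to act in cis: Kcnq1ot1 and Airn are transcribed from the paternal chromosome and silence neighbouring imprinted genes. Many others are short-lived by-products of transcription that the nuclear RNA exosome degrades, and the RNA of both strands can pair into double-stranded RNA, which Dicer, ADAR enzymes and viral sensors recognise. In hepatocytes an antisense gene accompanies the master regulator Hnf4a, a nuclear receptor that drives liver-specific transcription.

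The comparison of 3D with 2D cultures asks which antisense transcripts differ between the growth forms and whether the coding gene on the other strand differs with them. The coding gene that a transcript overlaps on the opposite strand is called its partner. A gene is called when its limma adjusted p is below 0.05, and the log2 fold change is that of TPM + 1, 3D over 2D, which understates the change of low genes. The hepatocyte markers Alb and Ttr were low in 2D, at 0.819 and 1.20 TPM for Alb and 3.98 and 3.11 TPM for Ttr, and reached 12.7 and 10.0 TPM and 88.1 and 80.9 TPM in 3D. Of 7 hepatocyte markers tested 5 were higher and 2 lower in 3D, the lower ones being the keratin genes Krt8 and Krt18, with log2 fold changes of -0.82 and -0.91. Cps1 and Cyp2e1, markers of mature hepatocytes, stayed under 0.35 TPM in every library. The biliary keratin genes Krt19 and Krt7 exceeded 300 TPM in every library and were also lower in 3D, by log2 fold changes of -0.49 and -0.65, while Sox9 was higher at 0.62 and Epcam and Cftr stayed under 0.4 TPM. All 4 endothelial markers (Pecam1, Cdh5, Kdr and Tek) stayed under 1 TPM in every library. So did 3 of 5 leukocyte markers (Ptprc, Adgre1 and Cd79a), whereas Cd68 had 19.0 and 18.3 TPM in 2D and 25.5 and 21.4 TPM in 3D, and Cd3e was lower in 3D, with 2.00 and 1.72 TPM against 0.496 and 0.490 TPM. Of the stellate cell markers, Col1a1, Pdgfrb and Acta2 stayed under 1 TPM in every library, and Des was lower in 3D, with 33.7 and 36.1 TPM against 18.8 and 17.3 TPM. The part of these differences in the antisense results was not tested. TPM values keep no depth, so no counting interval could be given.

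Fewer antisense transcripts passed the test than genes in general, and more of them were lower than higher in 3D. Of the 341, 135 were called (39.6%), 48 higher and 87 lower in 3D. These calls include 15 transcripts that met the rule through 1 culture alone, 3 through 3D and 12 through 2D. The direction of those 15 followed from the rule and is a description. Among all 14116 genes tested, 50.5% were called, 23.4% higher and 27.1% lower. The median log2 fold change was -0.14 over the antisense transcripts and -0.04 over all genes. Changes beyond 1 on the log2 scale were called for 14 higher and 19 lower antisense transcripts, against 4.37% and 3.83% of all genes. At an unadjusted p below 0.05, 171 antisense transcripts passed. The 2D and 3D libraries did not overlap for 253 of the 341 (74.2%), against 77.5% of all genes. Leaving out any 1 library lowered the number called among the antisense transcripts and also among all genes. All 135 kept their sign without each library in turn, and 71 of them kept their call.

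The share called rose with expression level, and antisense transcripts were scarce. Their median level was 3.51 TPM, against 28.5 TPM for the coding genes tested. Among the 206 antisense transcripts of 1 to 5 TPM, 31.1% were called, against 36.5% of all genes at that level. Of the 108 at 5 to 20 TPM, 48.1% were called, against 47.9%. Of the 27 at 20 TPM and over, 70.4% were called, against 57.6%, and here 11 were higher and 8 lower in 3D. Long intergenic noncoding RNAs, the noncoding class closest to them, were called in 46.4% of 442 cases, 15.2% higher and 31.2% lower. No test of these differences between classes was made. The antisense transcripts together held 2695 and 2743 TPM in the 2D libraries and 2713 and 2640 TPM in the 3D libraries, so their summed share of the transcriptome was nearly the same in both cultures.

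**Figure D1:**
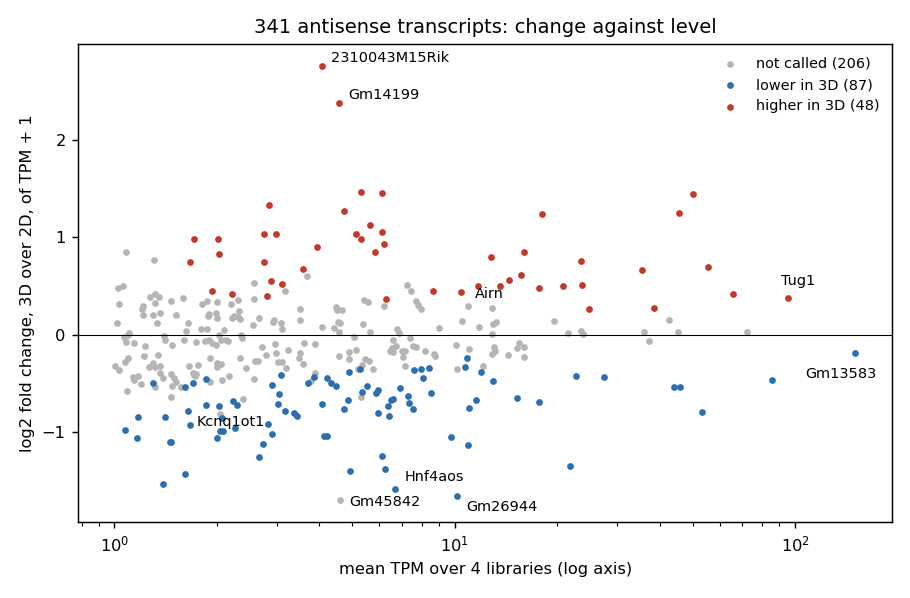
Each point is 1 of 341 antisense transcripts, with the mean TPM over 4 libraries on a log x axis and the log2 fold change of TPM + 1, 3D over 2D, on the y axis. Red points (48) were called higher and blue points (87) lower in 3D, and 206 grey points were not called. 2310043M15Rik and Gm14199 lie highest at means near 4 TPM, Gm26944 and Hnf4aos lie among the lowest, and Gm45842 lies low without a call and has 1 3D library listed at 0.

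The rule on the mean let in 36 transcripts through 1 culture alone, 12 with a 2D mean and 24 with a 3D mean under 1 TPM, and 15 of these 36 were called, 3 of the former and 12 of the latter. A transcript let in by the culture where it is high had to differ, so these calls are given as a description. They include 2310043M15Rik, Gm14199 and Gm36551, which passed through 3D, and Kcnq1ot1, Gm30873, Gm30893, Man2c1os and Mettl5os, which passed through 2D. In 270 of the 341 every library reached 1 TPM. Nearest the threshold on its inner side were Gm26766 (mean 1.01 TPM), 1700010K24Rik (1.02 TPM) and Gm45091 (1.02 TPM). Just outside it were A230083N12Rik (0.998 TPM), 5033417F24Rik (0.994 TPM) and 1700105P06Rik (0.978 TPM). Gm45842 was the 1 transcript with a library at 0. It had 7.34 and 6.33 TPM in 2D and 4.78 and 0 TPM in 3D, and its adjusted p was 0.155.

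The promoters of the transcripts on which the following results turn are shown here as RefSeq gives them on GRCm38.p6, each with 250 bases before and 50 bases from the start site. RefSeq promoters were found for 164 of the 341. Capitals mark matches on either strand to 3 motifs. They are CCAAT (the CCAAT box), CAAAGTCC (a core of the HNF4 site) and TGANTCA (a loose form of the AP-1 site, where N is any base). No matches overlapped each other. Of 32851 promoters of the same length, 37.4% hold CCAAT, 1.42% hold CAAAGTCC and 7.81% hold TGANTCA. These motifs were chosen with the sequences in view, and a match is a description of the letters and not a bound site. The Hnf4aos promoter is on the minus strand at chr2:163541672-163541971 and holds 1 CAAAGTCC.
Hnf4aos: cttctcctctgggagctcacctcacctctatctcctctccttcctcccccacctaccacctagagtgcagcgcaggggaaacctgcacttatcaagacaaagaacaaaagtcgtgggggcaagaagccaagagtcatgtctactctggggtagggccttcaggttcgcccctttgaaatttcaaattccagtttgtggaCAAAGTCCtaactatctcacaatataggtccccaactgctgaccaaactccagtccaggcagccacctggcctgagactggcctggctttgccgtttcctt
Hnf4a has 2 RefSeq start sites on the plus strand, the upstream one with its promoter at chr2:163506607-163506906 and the downstream one at chr2:163546905-163547204, and each holds 1 CCAAT in reverse.
Hnf4a upstream: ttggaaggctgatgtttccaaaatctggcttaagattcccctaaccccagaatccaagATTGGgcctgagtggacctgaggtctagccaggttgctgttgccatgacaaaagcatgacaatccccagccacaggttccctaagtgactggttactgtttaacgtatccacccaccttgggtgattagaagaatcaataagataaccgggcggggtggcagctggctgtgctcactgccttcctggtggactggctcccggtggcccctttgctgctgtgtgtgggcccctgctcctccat
Hnf4a downstream: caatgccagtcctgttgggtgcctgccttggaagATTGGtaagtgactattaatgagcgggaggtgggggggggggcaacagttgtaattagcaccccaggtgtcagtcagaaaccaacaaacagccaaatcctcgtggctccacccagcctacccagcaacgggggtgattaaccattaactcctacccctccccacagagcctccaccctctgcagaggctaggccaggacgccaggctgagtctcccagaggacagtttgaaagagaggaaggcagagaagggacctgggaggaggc
The Kcnq1ot1 promoter, on the minus strand at chr7:143296498-143296797, holds 3 CCAAT.
Kcnq1ot1: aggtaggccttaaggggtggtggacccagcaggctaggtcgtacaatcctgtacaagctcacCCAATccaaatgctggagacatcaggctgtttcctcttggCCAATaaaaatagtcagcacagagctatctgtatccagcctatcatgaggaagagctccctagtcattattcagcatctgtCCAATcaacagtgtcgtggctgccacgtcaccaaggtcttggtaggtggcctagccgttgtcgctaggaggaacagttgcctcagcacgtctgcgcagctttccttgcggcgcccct
The promoter of 2310043M15Rik, the antisense transcript with the largest rise, is on the minus strand at chr16:93794852-93795151 and holds 1 TGANTCA just after the start site.
2310043M15Rik: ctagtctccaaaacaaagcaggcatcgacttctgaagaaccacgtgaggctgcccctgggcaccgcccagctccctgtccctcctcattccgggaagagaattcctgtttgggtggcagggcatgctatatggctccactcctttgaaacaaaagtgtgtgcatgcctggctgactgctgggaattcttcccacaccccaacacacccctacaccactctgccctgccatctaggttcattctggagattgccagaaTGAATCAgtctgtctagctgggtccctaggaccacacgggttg

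Hnf4aos fell while Hnf4a, on the other strand, rose. Hnf4aos is a spliced transcript with up to 4 exons at chr2:163493807-163541720, and it starts inside Hnf4a, 34864 bases downstream of the upstream Hnf4a start and 5434 bases upstream of the downstream one. Its first exon therefore lies between the promoters of Hnf4a whose sequences are printed above, and it shares no exon base with Hnf4a. It measured 9.97 and 10.9 TPM in 2D and 1.99 and 3.87 TPM in 3D. Hnf4a measured 56.7 and 57.6 TPM in 2D and 163.8 and 155.6 TPM in 3D. Neither gene had a 3D value within its 2D range. The log2 fold change was -1.58 (standard error 0.25, adjusted p = 0.00722) for Hnf4aos and 1.47 (standard error 0.05, adjusted p = 0.000241) for Hnf4a. Hnf4aos stood at 18.3% of the Hnf4a level in 2D and at 1.84% in 3D, and the ratio changed by -3.05 on the log2 scale (standard error 0.27, adjusted p = 0.00250). Without 2D replicate 2 the adjusted p of Hnf4aos was 0.0555. The gene-level TPM of Hnf4a does not separate transcripts from its upstream and downstream promoters.

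Kcnq1ot1 and Kcnq1 differed in the same opposite way at a much lower level. Kcnq1ot1 is annotated as a single exon of 93092 bases at chr7:143203458-143296549, read from inside the potassium channel gene Kcnq1, and 121 of its bases lie in Kcnq1 exons. It measured 2.26 and 2.42 TPM in 2D and 0.876 and 1.01 TPM in 3D. Kcnq1 measured 2.46 and 2.91 TPM in 2D and 6.22 and 5.53 TPM in 3D. The 2 genes were thus near each other in 2D and far apart in 3D. The 3D mean of Kcnq1ot1 was below 1 TPM, so it met the rule through 2D alone. It fell by 0.78 on the log2 scale (standard error 0.12, adjusted p = 0.00741), Kcnq1 rose by 0.90 (standard error 0.12, adjusted p = 0.00448), and the ratio changed by -1.69 (standard error 0.18, adjusted p = 0.00365). Both kept their calls without each library in turn.

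The other genes of the imprinted domain around Kcnq1ot1, listed after the values of Kcnq1ot1 had been seen, did not move together. Of 10 listed, Kcnq1 among them, 7 were tested. Of these 2 were higher, Kcnq1 and Slc22a18, and 1 was lower, against 23.4% and 27.1% of all genes. Slc22a18, an organic cation transporter gene, had 6.95 and 6.07 TPM in 2D and 13.7 and 15.6 TPM in 3D. Osbpl5, an oxysterol-binding protein gene, had 94.6 and 110.5 TPM in 2D and 65.9 and 70.9 TPM in 3D. The log2 fold changes were 1.06 (adjusted p = 0.00228) and -0.57 (adjusted p = 0.00721). Tssc4, Cd81, Nap1l4 and Tspan32 were not called, with log2 fold changes from -0.13 to 0.15. Cdkn1c, Phlda2 and Ascl2, which are among the genes that Kcnq1ot1 is known to silence, were under 0.5 TPM in every library.

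Airn, the antisense RNA of the imprinted Igf2r locus, did not pass the test. It measured 8.32 and 10.98 TPM in 2D and 10.1 and 14.2 TPM in 3D, so the groups overlapped. Its log2 fold change was 0.30 (standard error 0.20, adjusted p = 0.274). Igf2r, the receptor that clears IGF2 and carries lysosomal enzymes, had 10.2 and 11.3 TPM in 2D and 15.5 and 14.5 TPM in 3D. Igf2r was higher in 3D by 0.45 (adjusted p = 0.0138), and the ratio of Airn to Igf2r did not pass (change -0.15, adjusted p = 0.622). In a list of antisense genes with a described role, Hnf4aos, Kcnq1ot1 and Airn were the 3 that met the rule.

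**Figure D2:**
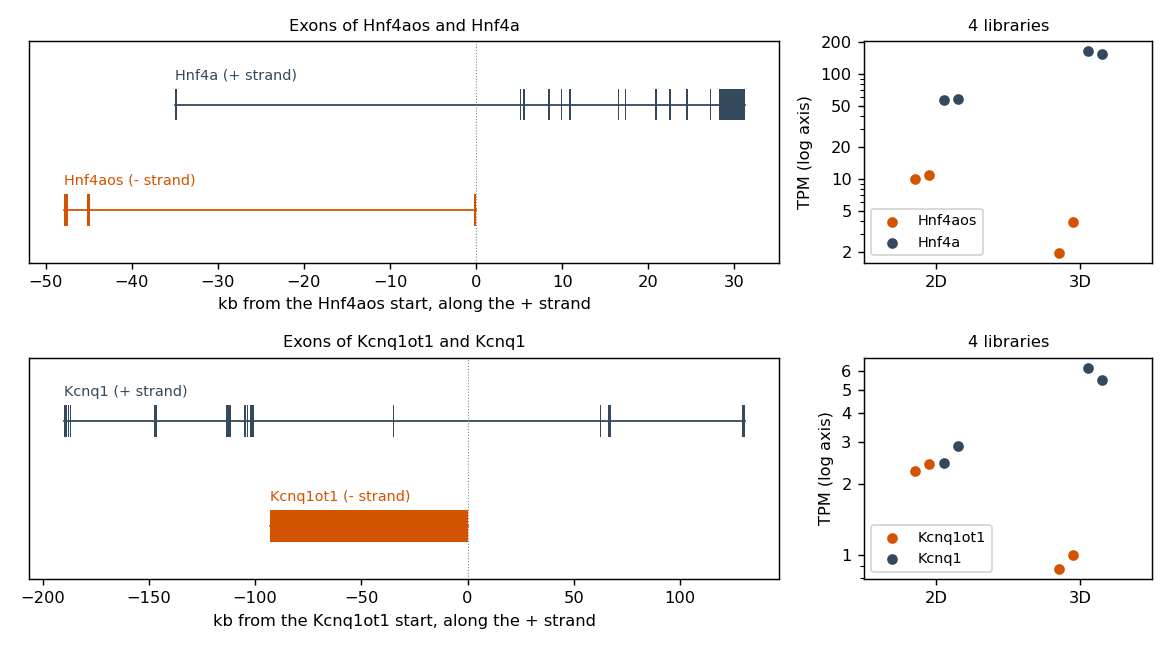
The left panels draw the exons of Hnf4aos with Hnf4a and of Kcnq1ot1 with Kcnq1 against the distance in kb from the antisense start, with thin lines for introns. The right panels give TPM on a log axis for each of the 4 libraries. Hnf4aos starts between the first and second exons of Hnf4a and Kcnq1ot1 fills part of the inside of Kcnq1, and in both loci the antisense RNA is lower and the coding gene higher in 3D.

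Of the 341 transcripts, 298 overlapped at least 1 coding gene on the opposite strand. Their layouts were head to head for 114, tail to tail for 71, antisense inside the partner for 98 and partner inside the antisense for 15. Head to head here means any partial overlap that holds the partner's start, whatever the distance between the starts. Of 109 head to head pairs with a partner of at least 1 TPM, 76 had starts within 1000 bases of each other. The partner was below 1 TPM for 41, which left 257 pairs with 252 different partners. The antisense transcript was usually the minor one, with a median of 12.0% of its partner's TPM. In 64 pairs it was under 5%, and in 21 pairs it exceeded the partner. Pairs share exon bases in 214 cases. Reads from shared bases can be divided between the genes by strand, and the stranded kit marks it, but whether the quantifier was told so was not stated in the sources used here.

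Across the 257 pairs the antisense transcript and its partner more often moved in the same direction than in opposite ones. Both genes were called in 59 pairs, the same way in 41 (16.0% of pairs) and opposite ways in 18. Over all 1733 pairs of overlapping genes on opposite strands, 16.0% had both genes called in the same direction and 8.37% in opposite directions. Over the 1058 pairs of 2 coding genes these shares were 16.4% and 9.64%. The share for antisense transcripts is thus near the background. The log2 fold changes had the same sign in 152 pairs (59.1%), against 58.2% of all 1733 pairs and 57.8% of the coding pairs. Across the 257 pairs their Spearman correlation was 0.26 and their Pearson correlation 0.27. The Spearman correlation was 0.19 over all 1733 pairs and 0.17 over the coding pairs. These correlations are a description over genes that share the same 4 libraries. In 44 pairs the antisense alone was called, in 83 the partner alone, and in 71 neither.

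The log2 ratio of antisense to partner passed its own test in 95 of 257 pairs, 32 higher and 63 lower in 3D. Among all 1733 pairs 34.9% passed. The count depended on single libraries: it was 53 without 2D replicate 1, 55 without 2D replicate 2, 43 without 3D replicate 1 and 32 without 3D replicate 2. Pairs in which the antisense lies inside the partner passed in 37 of 83 cases, head to head pairs in 34 of 109, tail to tail pairs in 20 of 56 and pairs with the partner inside in 4 of 9. Among pairs with no shared exon base 19 of 43 passed.

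**Figure D3:**
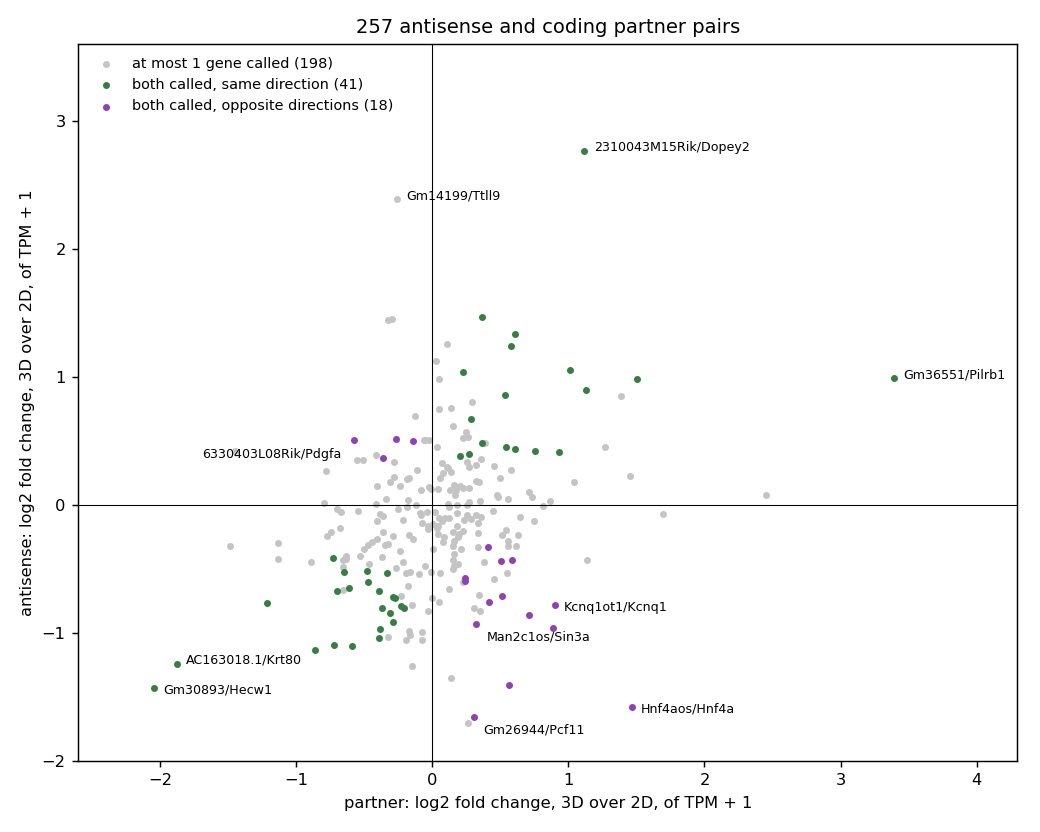
Each of 257 points is a pair, with the log2 fold change (3D over 2D, TPM + 1) of the coding partner on the x axis and of the antisense transcript on the y axis. Green marks 41 pairs with both genes called in the same direction, purple 18 pairs called in opposite directions, and grey the other 198. Purple points lie mostly in the lower right quadrant, with the antisense lower and the partner higher in 3D.

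In 14 of the 18 opposite pairs the antisense was lower and the partner higher in 3D, as with Hnf4aos and Kcnq1ot1, and in 4 the reverse held. The 14 include Kcnq1ot1 and Man2c1os, which met the rule through 2D alone, so their calls are a description. All 18 ratios were called, and all 18 pairs kept opposite signs without each library in turn. Both genes kept their calls without each library in 3 pairs: Kcnq1ot1 with Kcnq1, Gm15722 with Gramd4 and E430024P14Rik with Tagap. The number of the 18 pairs with both genes called was 8 without 2D replicate 1, 8 without 2D replicate 2, 7 without 3D replicate 1 and 6 without 3D replicate 2. It was 9 with no filter on low values, none of them among the 4 reverse pairs, and 12 with the replicate number as a block, 1 of them a reverse pair.

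Gm15722 is a spliced transcript inside Gramd4, a gene for a mitochondrial protein linked to cell death, and shares no exon base with it. It measured 6.94 and 8.27 TPM in 2D and 2.44 and 2.05 TPM in 3D, while Gramd4 measured 45.2 and 47.0 TPM in 2D and 68.1 and 68.9 TPM in 3D. The groups were separate for both genes, and Gm15722 went from 16.5% to 3.28% of Gramd4. E430024P14Rik spans Tagap, which codes for a GTPase-activating protein of T cells. It measured 2.68 and 3.23 TPM in 2D and 1.22 and 1.13 TPM in 3D, while Tagap measured 7.39 and 7.34 TPM in 2D and 13.3 and 12.0 TPM in 3D. Its level against Tagap fell from 40.2% to 9.28%. The ratios changed by -1.97 (adjusted p = 0.00185) and -1.57 (adjusted p = 0.00369) on the log2 scale.

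Gm26944 had the largest fall of any called antisense transcript on the scale of log2(TPM + 1). By the ratio of TPM 6 called transcripts of lower level fell further, and the TPM ratio of 3D to 2D was 0.275 for Gm26944 against 0.0882 for Gm30873. It meets Pcf11, a factor that ends transcription by RNA polymerase II, tail to tail at chr7:92639739-92647442. It measured 15.6 and 16.3 TPM in 2D and 4.81 and 3.97 TPM in 3D, a log2 fold change of -1.66 (standard error 0.11, adjusted p = 0.000718). Pcf11 measured 39.0 and 38.7 TPM in 2D and 47.8 and 48.7 TPM in 3D and was higher by 0.31 (adjusted p = 0.00774). The fall of Gm26944 was therefore much larger than the rise of its partner. Without 3D replicate 2 the adjusted p of Pcf11 was 0.0530. Gm26944 also overlaps 6430511E19Rik on its own strand, and reads of the 2 may have been divided between them.

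The other opposite pairs changed less. Gm45515, inside the actin-binding gene Swap70, had 13.4 and 14.7 TPM in 2D and 7.83 and 8.004 TPM in 3D. Its level against Swap70 went from 89.0% to 37.0%. Gm13205, inside the zinc finger gene Casz1, had 9.27 and 9.66 TPM in 2D and 7.09 and 6.34 TPM in 3D, and went from 161.8% to 77.1% of Casz1, so the more abundant strand changed. Gm19610 starts 151 bases from Ereg, which codes for the EGF receptor ligand epiregulin. It had 5.85 and 7.44 TPM in 2D and 3.96 and 4.12 TPM in 3D. The call of Gm13205 was lost without 2D replicate 2 or 3D replicate 2, and that of Gm19610 without 2D replicate 2, 3D replicate 1 or 3D replicate 2, with adjusted p up to 0.0821 and 0.0855. Of the 4 reverse pairs, 6330403L08Rik lies opposite the platelet-derived growth factor gene Pdgfa, Gm4419 opposite the 14-3-3 gene Ywhaq, Gm20163 opposite Exoc3l and Gm16178 opposite the kinase gene Nek1. Gm16178 measured 19.8 and 18.8 TPM in 2D and 28.3 and 27.5 TPM in 3D, above Nek1 in every library. The call of Nek1, whose adjusted p was 0.0483, was lost without each library in turn, and so were those of Ywhaq and Ereg. The calls of 6330403L08Rik and Gm20163 held without only 1 of the 4 libraries.

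**Figure D4:**
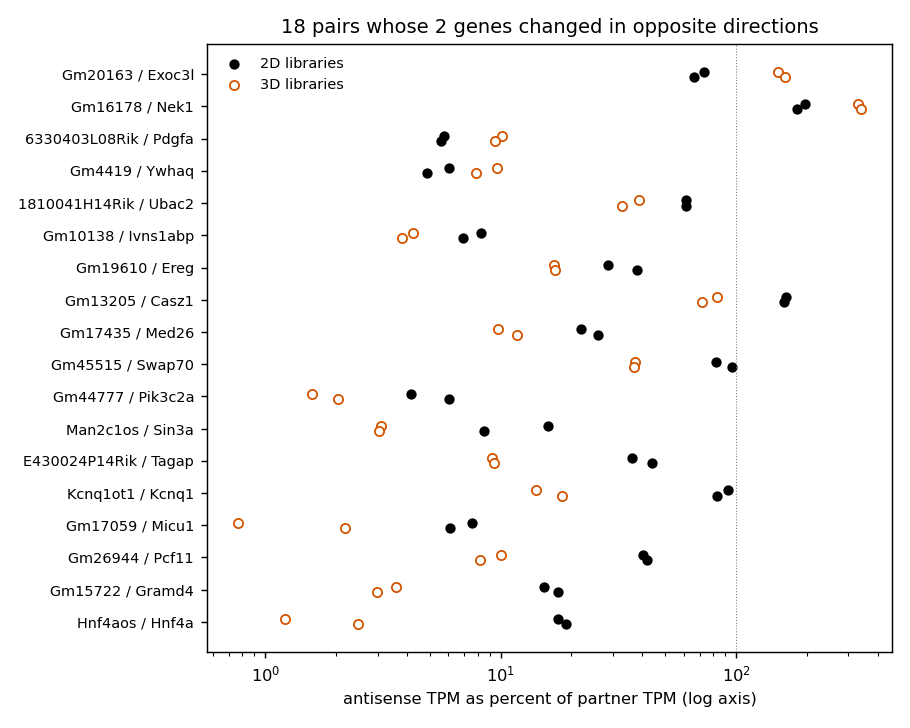
For the 18 pairs called in opposite directions the x axis gives antisense TPM as percent of partner TPM on a log scale, with black points for the 2D and open points for the 3D libraries, and a dotted line at 100%. The 2D and 3D points of each pair are separate, and Hnf4aos has the widest gap, from 18.3% in 2D to 1.84% in 3D by the group means.

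Of the 41 pairs called in the same direction, 18 were higher and 23 lower in 3D. Both genes kept their calls without each library in 14, and the number with both called was 27 without 2D replicate 1, 28 without 2D replicate 2, 19 without 3D replicate 1 and 16 without 3D replicate 2. The following pairs are examples named after their values were seen. AC163018.1, which spans the keratin gene Krt80, had 7.41 and 10.7 TPM in 2D and 3.01 and 3.36 TPM in 3D, and Krt80 had 199.7 and 218.4 TPM in 2D and 57.6 and 55.0 TPM in 3D. Gm47766 starts 928 bases from the start of Actn1, which codes for the actin cross-linker alpha-actinin. It had 15.96 and 14.9 TPM in 2D and 6.38 and 6.58 TPM in 3D, and Actn1 had 822 and 886 TPM in 2D and 473 and 465 TPM in 3D. In both loci the antisense stayed under 6% of its partner by the group means.

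Egfros and Egfr, the EGF receptor gene, fell in step. Egfros lies inside Egfr at chr11:16815431-16830702 with no shared exon base. It measured 18.4 and 19.2 TPM in 2D and 12.0 and 11.3 TPM in 3D, while Egfr measured 92.3 and 97.6 TPM in 2D and 63.5 and 59.9 TPM in 3D. The log2 fold changes were -0.65 (standard error 0.07, adjusted p = 0.00290) and -0.61 (adjusted p = 0.00168). Egfros stood at 19.8% of Egfr in 2D and at 18.8% in 3D, and the ratio did not pass its test (change -0.04, standard error 0.10, adjusted p = 0.809). Brip1os with the Integrator subunit gene Ints2 and Faddos with the death receptor adaptor gene Fadd also fell together and kept both calls without each library. Brip1os was as abundant as Ints2, at 52.0 and 56.7 TPM in 2D and 37.8 and 36.7 TPM in 3D, against 44.1 and 44.9 TPM and 34.8 and 35.4 TPM.

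The largest rise among antisense transcripts was that of 2310043M15Rik, a transcript of 2 exons inside Dopey2, whose product works in membrane traffic. It measured 0.383 and 0.208 TPM in 2D and 8.63 and 7.01 TPM in 3D, a TPM ratio of 26.5, and it met the rule on the mean through 3D alone. Dopey2 measured 18.5 and 12.8 TPM in 2D and 34.7 and 34.3 TPM in 3D. Both genes were separate between the cultures, and the antisense went from 1.89% to 22.7% of its partner. The log2 fold changes were 2.77 (standard error 0.15, adjusted p = 0.000526) and 1.11 (adjusted p = 0.00705). The ratio rose by 1.65 (adjusted p = 0.00429), and with a pseudocount of 5 its adjusted p was 0.148. The promoter of 2310043M15Rik, with its match to TGANTCA, is printed above.

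Gm15222 rose with Bmp4, which codes for a bone morphogenetic protein. It had 1.15 and 0.907 TPM in 2D and 3.01 and 2.99 TPM in 3D, and Bmp4 had 7.73 and 7.09 TPM in 2D and 23.5 and 22.2 TPM in 3D. The antisense kept near 13.9% and 13.1% of Bmp4 in 2D and 3D. Gm36551 starts 1061 bases from Pilrb1, a gene for a paired immunoglobulin-like receptor, and rose less than its partner. It had 0.809 and 0.817 TPM in 2D and 2.33 and 2.87 TPM in 3D, meeting the rule through 3D alone, while Pilrb1 had 3.51 and 4.21 TPM in 2D and 59.7 and 41.8 TPM in 3D. Its share of Pilrb1 fell from 21.04% to 5.13%, and the ratio changed by -2.41 (adjusted p = 0.00446). Gm14224 with the cytoskeletal linker gene Epb41l1, Gm28809 with the tetraspanin gene Cd9 and C230037L18Rik with the lysosomal arylsulfatase gene Arsa also rose together, each with both calls kept without each library. C230037L18Rik had 10.0 and 10.6 TPM in 2D and 26.8 and 24.7 TPM in 3D.

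Other antisense transcripts changed while the partner did not pass the test. Gm14199, inside the tubulin ligase-like gene Ttll9, had 0.971 and 0.604 TPM in 2D and 9.32 and 7.37 TPM in 3D, and met the rule through 3D alone. Ttll9 stayed between 1.25 and 2.14 TPM in the 4 libraries. Gm14199 thus went from 42.9% of its partner to 616% of it, with a log2 fold change of 2.39 (standard error 0.17, adjusted p = 0.000899) against -0.26 (adjusted p = 0.240) for Ttll9. 1700110K17Rik, inside Gramd1b, a cholesterol transporter gene, had 23.8 and 29.1 TPM in 2D and 77.6 and 69.8 TPM in 3D. 2900093K20Rik, a single exon inside Oser1 by the positions of the gene table, had 27.7 and 25.4 TPM in 2D and 67.9 and 61.5 TPM in 3D. By their RefSeq starts on chromosome 2, at 163419771 and 163419470, 2900093K20Rik and Oser1 run apart without overlap. The partners Gramd1b and Oser1 were not called, at log2 fold changes of -0.33 (adjusted p = 0.0660) and 0.11 (adjusted p = 0.127). Gm4610, inside the adaptor gene Bcar3, had 30.2 and 33.2 TPM in 2D and 11.6 and 12.0 TPM in 3D, while Bcar3 changed by 0.14 (adjusted p = 0.175). The cultures were separate for all 4 of these antisense transcripts.

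The reverse, a partner that changed beside a steady antisense transcript, was seen at the lens filament gene Bfsp2. Its antisense 5830418P13Rik had 10.8 and 12.1 TPM in 2D and 11.5 and 12.8 TPM in 3D, and the groups overlapped. Bfsp2 had 7.93 and 8.20 TPM in 2D and 49.1 and 48.1 TPM in 3D. The ratio changed by -2.38 (standard error 0.12, adjusted p = 0.000759). At Abcb1b, which codes for a multidrug efflux pump, Gm5106 had 0.916 and 1.03 TPM in 2D and 1.89 and 1.42 TPM in 3D, and Abcb1b had 26.3 and 26.6 TPM in 2D and 9.55 and 8.57 TPM in 3D. Gm5106 had a 2D mean below 1 TPM and met the rule through 3D alone. It was not called (adjusted p = 0.0750). The ratio rose by 1.87 (adjusted p = 0.00254), which is given as a description.

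**Figure D5:**
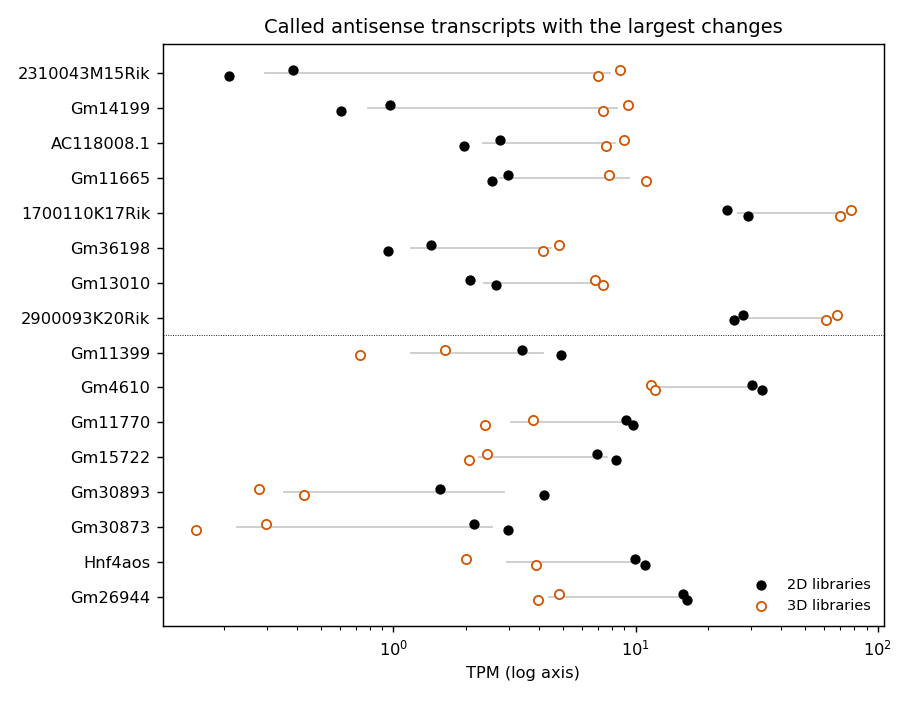
TPM on a log axis for the 8 called transcripts with the largest rise (upper rows) and the 8 with the largest fall (lower rows) in log2(TPM + 1), with black points for 2D and open points for 3D libraries and grey lines joining the group means. The 2D and 3D points are separate in each row, and the spread between 2D libraries is widest for Gm30893.

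Some of these large changes had no expressed partner or none at all. Gm30873 lies inside Arnt2, which was under 0.31 TPM in every library. It had 2.14 and 2.97 TPM in 2D and 0.298 and 0.153 TPM in 3D, a log2 fold change of -1.53 (standard error 0.18, adjusted p = 0.00306), and met the rule through 2D alone. Gm11770 and Gm13010 overlapped no coding gene on the opposite strand. Gm11770 had 9.12 and 9.73 TPM in 2D and 3.76 and 2.38 TPM in 3D, and Gm13010 had 2.07 and 2.65 TPM in 2D and 6.82 and 7.34 TPM in 3D. The first fell by 1.38 (adjusted p = 0.00463) and the second rose by 1.27 (adjusted p = 0.00215) on the log2 scale. Of 43 transcripts without an overlapping coding gene 18 were called (41.9%, against 39.6% of all 341 and 50.5% of all genes), 4 higher and 14 lower, and 28 of the 43 had a coding gene within 1000 bases on the other strand. Of the 41 whose partner was below 1 TPM, 7 were called higher and 7 lower (34.1% together).

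The calls of Gm30893 and Gm11399, among the 8 largest falls, were less firm. Gm30893 starts 1742 bases from Hecw1, a ubiquitin ligase gene, and had 1.55 and 4.19 TPM in 2D and 0.278 and 0.428 TPM in 3D, so it too met the rule through 2D alone. Hecw1 had 9.82 and 9.23 TPM in 2D and 1.43 and 1.67 TPM in 3D. Gm30893 lost its call without 3D replicate 1 (adjusted p = 0.129) and without 3D replicate 2 (adjusted p = 0.103), while Hecw1 kept its own. Gm11399, inside the centrosomal gene Sfi1, had 3.38 and 4.92 TPM in 2D and 1.63 and 0.727 TPM in 3D. It lost its call without 2D replicate 2 (adjusted p = 0.0807) and without 3D replicate 2 (adjusted p = 0.0511). The remaining large rises were Gm11665 opposite the myosin light chain gene Myl4, AC118008.1 opposite Trappc9 and Gm36198, with log2 fold changes of 1.45, 1.47 and 1.33. Gm36198 had 1.42 and 0.948 TPM in 2D and 4.83 and 4.15 TPM in 3D.

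The 6 most abundant antisense transcripts had log2 fold changes from -0.46 to 0.70. Gm13583, with 154.0 and 167.0 TPM in 2D and 140.5 and 140.6 TPM in 3D, was the highest of all and stood far above its partner, the phospholipase receptor gene Pla2r1, at 2.45 to 2.68 TPM. It was lower by 0.19 on the log2 scale (adjusted p = 0.0396), a call lost without 2D replicate 2 (0.0814), without 3D replicate 1 (0.147) and without 3D replicate 2 (0.146). Tug1, a long noncoding RNA, had 83.3 and 82.5 TPM in 2D and 111.5 and 105.3 TPM in 3D. By the positions of the gene table it starts 179 bases from the chromatin gene Morc2a and overlaps it. By their RefSeq starts on chromosome 11, at 3648814 for Tug1 and 3649437 for the nearer start of Morc2a, they run apart without overlap. Morc2a had 65.4 and 66.5 TPM in 2D and 77.0 and 75.3 TPM in 3D. Both were higher in 3D, by 0.38 (adjusted p = 0.00389) and 0.21 (adjusted p = 0.0190), and the call of Morc2a held without 1 of the 4 libraries and was lost without any of the other 3. Map2k3os, which lies 166 bases from the MAP kinase kinase gene Map2k3, had 103.8 and 94.2 TPM in 2D and 69.3 and 74.0 TPM in 3D. Gm12905, tail to tail with the Myc-binding gene Mycbp, had 44.5 and 40.0 TPM in 2D and 67.1 and 71.0 TPM in 3D. Gm28809, inside Cd9, had 59.0 and 52.9 TPM in 2D and 73.9 and 76.3 TPM in 3D, and these 3 were called as well. 1500015A07Rik stayed between 69.3 and 75.3 TPM in the 4 libraries and was not called (adjusted p = 0.673).

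Of 48 transcripts named after the gene on the other strand (symbols ending in os, as or ot), 8 were called higher and 14 lower in 3D, together 45.8% against 39.6% of all 341 and 50.5% of all genes. Their median log2 fold change was -0.19. The 8 higher ones were Rab10os, Rap1gapos, Dnah2os, Ttc39aos1, B9d1os, Bcas3os2, Hk1os and Arhgap27os1, with log2 fold changes from 0.44 to 0.93, and the first 3 kept their calls without each library in turn. Rab10os had 28.2 and 26.3 TPM in 2D and 45.1 and 42.5 TPM in 3D and rose with Rab10, a GTPase of membrane traffic, at 99.7 and 101.4 TPM and 123.6 and 121.6 TPM. Rab26os, inside the secretory GTPase gene Rab26, had 55.3 and 49.4 TPM in 2D and 35.9 and 35.4 TPM in 3D. Chn1os3, Mypopos, Man2c1os, Junos, Taco1os, Mettl5os and Rab11fip4os1 were lower as well, with log2 fold changes from -0.93 to -0.38. Junos starts 688 bases from the AP-1 gene Jun and had 7.22 and 6.17 TPM in 2D and 4.20 and 4.49 TPM in 3D, while Jun stayed between 151 and 154 TPM. The calls of Junos and Man2c1os were lost without 2D replicate 1, 3D replicate 1 or 3D replicate 2, and those of Taco1os and Mettl5os without any 1 library, and that of Rab11fip4os1 without 2D replicate 2 or 3D replicate 2.

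Gt(ROSA)26Sor, the transcript of the locus widely used to house transgenes in mice, was picked out after its values were seen. It had 31.8 and 31.5 TPM in 2D and 23.1 and 23.3 TPM in 3D. The replicates nearly coincided, and the fall of 0.43 on the log2 scale passed the test (adjusted p = 0.00402). Its partner Thumpd3 had 59.9 and 62.5 TPM in 2D and 68.4 and 67.8 TPM in 3D and was not called (adjusted p = 0.0545).

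Genes that degrade antisense RNA and genes that handle double-stranded RNA were taken from 2 lists. Of the 23 tested genes of the nuclear RNA exosome and its adaptors, 4 were higher and 5 lower in 3D, against 23.4% and 27.1% of all genes, with a median log2 fold change of -0.04. A listed gene, Mpp6, was left out because the symbol is that of a membrane scaffold gene in mouse. The catalytic subunit gene Dis3 had 29.1 and 29.4 TPM in 2D and 21.3 and 19.6 TPM in 3D, and the adaptor gene Zcchc8 had 43.1 and 43.9 TPM in 2D and 29.0 and 30.2 TPM in 3D. The helicase gene Skiv2l2 and the core genes Exosc8 and Exosc9 were also lower, while Exosc4 and Exosc5 were higher. Dis3 and Zcchc8 changed by -0.49 (adjusted p = 0.00496) and -0.54 (adjusted p = 0.00220).

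Of the 24 tested genes of the list for double-stranded RNA, 13 were higher and 5 lower in 3D, against 23.4% and 27.1% of all genes, with a median log2 fold change of 0.44. Those higher were mostly sensors and their effectors, among them Oas1a, Oas1b, Oas3, Oasl1, Ifih1, Ddx58 and Tlr3. Oas3, one of the enzymes that make 2-5A upon binding double-stranded RNA, had 4.23 and 4.56 TPM in 2D and 10.9 and 10.2 TPM in 3D. The Oas1 genes are close paralogs, of which Oas1b is annotated as a polymorphic pseudogene, and their reads may have been divided among them. Adarb1, an RNA-editing enzyme gene, had 4.08 and 5.38 TPM in 2D and 15.4 and 11.9 TPM in 3D. The 5 lower genes were the microRNA processing genes Drosha, Dgcr8 and Tarbp2 and the RNA transport genes Stau1 and Stau2. Adar and Dicer1 were not called, at log2 fold changes of 0.16 and 0.06. Whether any of these genes had a part in the antisense changes was not tested.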

How the data were processed

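The authors made stranded libraries of polyadenylated RNA, removed adapters by cutadapt 1.8.3 and low-quality ends by Trimmomatic 0.36, mapped to GRCm38 using strand-aware HISAT2 2.0.5, and quantified Ensembl genes by StringTie 1.3.4 (versions from the submitters' processing notes). The authors deposited the TPM of each library unpooled, with a log2 fold change and p-value of their DESeq2 comparison that were not used here. TPM is relative within a library and keeps no depth.

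Each gene was tested on log2(TPM + 1) with limma 3.58.1 (R 4.3.3; empirical Bayes with a mean-variance trend, robust) over the 14116 genes with a mean of at least 1 TPM, and p-values were adjusted over all of them by Benjamini and Hochberg. The ratio of antisense to partner was tested in the same way over all 1733 opposite-strand pairs of tested genes. With 2 libraries a group an exact permutation test cannot go below 0.333. Partners are coding genes that overlap by at least 1 base on the opposite strand in the table's positions, the one with the longest overlap where there were several. Exons are those of GENCODE M21, which holds 338 of the 341 transcripts, 334 at the same position. On simulated data 100% of 4-fold and 95.0% of 2-fold changes of TPM + 1 were recovered, with 100 genes changed for each. The fit ran over 14116 genes, and far fewer were changed than were called in the real data. The changed genes all lay above a minimum level, so recovery among the lowest transcripts was not tested.

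Samples with the same replicate number did not deviate together (r = -0.05 over 14116 genes). With 2 libraries a group this cannot show whether the number pairs them. The main fit used no block, and a block was run as an alternative. Genes were named as follows: the 8 called transcripts with the largest rise and the 8 with the largest fall whose libraries were separate, the 6 most abundant, the 5 largest ratio changes each way, those named after the opposite strand or with a described role, 3 on each side of the threshold, and partners. Other pairs were named as examples after their values were seen. A few genes that the rule names are not reported here. The members and lists were chosen with earlier results of these data known.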

Additional observations from a re-analysis of the deposited data

How the results depend on the processing

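Each alternative changed 1 choice, and the last one named was chosen after seeing the data. With genes of at least 5 TPM only, 135 antisense transcripts could be tested, and 71 were called, 30 higher and 41 lower, with 46 ratios called. Of all genes at that level 55.0% were called. The lower counts follow from the smaller number tested. Leaving out 1 library at a time, with the lone library assumed to vary like the others, gave 85 to 101 called transcripts, 27 to 42 higher and 54 to 65 lower, and 32 to 55 called ratios, from fewer libraries. With no filter on low values 93 antisense transcripts were called, 33 higher and 60 lower. Of all genes 18.8% were called, but without the filter these include genes with a mean under 1 TPM. The 341 antisense transcripts all had a mean of at least 1 TPM, so the shares called without the filter cannot be compared. In that fit 27 pairs were called in the same direction and 9 in opposite ones. With the replicate block 112 were called, 41 higher and 71 lower, against 44.3% of all genes. Of the 112, 109 were the same transcripts as without the block. With it 91 ratios were called and 13 pairs in opposite directions. Over the pseudocounts, scalings and variance priors, the exon overlap, the choice of partner and the removal of transcripts that overlap a gene on their own strand, 125 to 148 transcripts and 77 to 106 ratios were called. Over the pseudocounts, scalings and variance priors 47.9% to 50.6% of all genes were called.

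Of 899 alternative values of the 72 named transcripts, 823 kept direction and side of the threshold, 51 lost and 9 gained a call, and 16 changed sign, none of them of a called transcript. Of 332 ratio values of 25 pairs, 312 kept both and 20 lost the call. The log2 fold change changed sign for Prox2os at 0.00215 (pseudocount 0.1) and 0.0457 (quantile normalization), for Dhx58os at 0.00765 (quantile normalization) and for Runx2os1 at 0.00170 (rescaled without mitochondrial and top genes). Without 1 library it ranged from -0.0118 to 0.0759 for 1500015A07Rik, -0.204 to 0.407 for Tmem51os1, -0.772 to 0.116 for Etaa1os, -0.0342 to 0.280 for Med9os, -0.0473 to 0.0516 for Dlx4os, -0.225 to 0.120 for Dhx58os, -0.116 to 0.0747 for Runx2os1 and -0.294 to 0.255 for Prox2os. The cause of these changes of sign was not tested.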
